A study of Homo sapiens with 4 samples.

Results

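Melatonin at 1 mM was compared with DMSO in HepG2 cells across both times of treatment, with each melatonin library paired with the DMSO library of its own time. HepG2 is an established human hepatocellular carcinoma cell line, wild type by its label, and it is known to keep much of the gene expression of a liver cell. The 4 libraries were DMSO and melatonin of 24 h and DMSO and melatonin of 48 h, with 1 library in each group, so that 2 melatonin libraries stood against 2 DMSO libraries. All cells grew in serum-containing medium without gene modification. The members are the 10750 protein-coding genes of at least 200 bp with an FPKM (fragments per kilobase of gene, scaled to the library size) of at least 1 in any library, out of 58302 genes in the files. Of these members 124 had fewer than 50 reads in every library. For each gene, log2((melatonin FPKM + 1)/(DMSO FPKM + 1)) was taken at 24 h and at 48 h. Values below are the mean of both ± the distance from this mean to either time, on the log2(FPKM + 1) scale, which understates the change of genes with low FPKM.

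Melatonin is a hormone of the pineal gland that signals through the receptors MT1 and MT2, and at high concentrations it also enters cells directly. The liver clears it, chiefly by hydroxylation through cytochrome P450 enzymes of the CYP1A family followed by coupling to sulfate or glucuronic acid. Hepatocytes secrete most plasma proteins, among them complement, coagulation factors and apolipoproteins, under the control of transcription factors such as HNF4A, CEBPA and the nuclear receptors. FOXO transcription factors, which insulin signalling holds inactive, are known for raising IGFBP1 and other genes of fasting in this cell type.

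At both times melatonin libraries were lower in some secreted proteins of the liver, such as complement component C8A, carboxypeptidase CPB2 and apolipoprotein H (APOH), and in the lipid droplet protein PLIN2. Of the secreted proteins tested, 7 of 24 of complement, 3 of 24 of coagulation and 9 of 28 other plasma proteins fell in the test described next. The libraries were higher at both times in CYP1A1, in the FOXO-linked genes C10orf10 and IGFBP1 and in the phosphodiesterase GPCPD1. Past 1.5-fold at each time and with 1 sign, 104 of the 10750 genes were higher (0.967%) and 152 were lower (1.41%). At least 2-fold at both times, 9 genes were higher (0.0837%) and 21 were lower (0.195%). A limma fit with time as a term called 190 genes higher (1.77%) and 229 lower (2.13%) at an adjusted p under 0.05, with 2397 genes at an unadjusted p under 0.05. The words rose and fell are used only for genes that passed this test. The fit has 1 residual degree of freedom, and its error is drawn from how far the difference at 24 h lies from that at 48 h. Most of the weight comes from other genes (7.66 prior degrees of freedom), so a gene whose times disagree widely can still be called. The error does not measure the spread between cultures, which these libraries do not hold. Of the genes past 1.5-fold at both times, the fit called 103 of 104 that were higher and 152 of 152 that were lower. The fold rule and the fit use the same differences. The smallest mean difference that the fit called was 0.589 in size among higher genes and 0.593 among lower genes. The 1.5-fold threshold is 0.585 on this scale, so this overlap is nearly built in and is not separate evidence. Without the term for time the fit called 0 genes, with 692 at an unadjusted p under 0.05. It also called 0 genes with no FPKM minimum. Under the other 10 alternatives to this fit, 51 of the 95 called genes named by rule were called wherever they were tested, and all 44 that lost a call lost it when genes of all biotypes were tested together. A call lost after centring on the median, with TPM, with mitochondrial genes left out of the scaling or after correction for GC content and length (the correction, below) is given beside the gene.

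The balance of higher and lower genes depended on the scaling. Of the genes past 1.5-fold at both times 40.6% were higher, against 68.2% after rescaling to TPM (193 higher and 90 lower), 52.5% with the plain sum of recovered reads as library size (125 and 113) and 23.1% with mitochondrial genes left out of the scaling (79 and 263). Of the limma calls 45.3% were higher, against 59.6% with TPM (362 and 245), 61.8% with the sum of reads (511 and 316) and 31.5% after centring on the median (73 and 159). TPM moved the median of all genes by 0.14 at 24 h and by -0.05 at 48 h, and the scaling without mitochondrial genes moved it by -0.16 and by 0.09. As deposited, this median was 0.04 at 24 h and -0.005 at 48 h. The scaling without mitochondrial genes divided each FPKM by the share of the summed FPKM outside the mitochondrial genome. It did not use the shares of reads given next. Reads of the mitochondrial genome made up 19.96% in DMSO 24 h, 16.6% in melatonin 24 h, 9.77% in DMSO 48 h and 11.9% in melatonin 48 h, and its part in the balance of calls was not tested beyond these scalings.

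The difference at 24 h and that at 48 h had the same sign in 7278 genes (67.7%), of which 4006 were above 0 at both times and 3272 below. The median distance from the mean to either time was 0.10. Across the 10750 genes, which are not independent replicates, Pearson's r between both differences was 0.56 and Spearman's rho was 0.53, and these differences share no library. The difference was wider at 48 h. At 24 h 202 genes were at least 1.5-fold higher and 289 lower, and at 48 h 718 were higher and 676 lower. Of the 24 h genes 51.5% of the higher and 52.6% of the lower were past 1.5-fold at 48 h as well, whereas of the 48 h genes 14.5% and 22.5% were at 24 h. Among the genes past 1.5-fold at both times, 77 of 104 higher genes and 104 of 152 lower genes were further from 0 at 48 h.

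**Figure D1:**
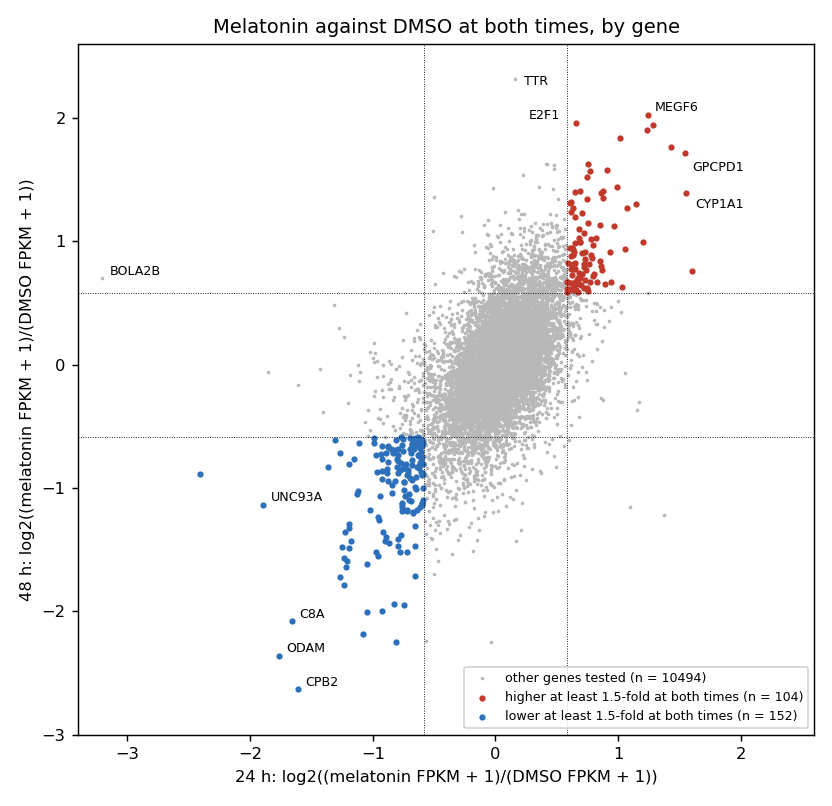
Each point is 1 of the 10750 genes, at its log2((melatonin FPKM + 1)/(DMSO FPKM + 1)) at 24 h (horizontal axis) and at 48 h (vertical axis). Dotted lines mark 1.5-fold, and the 104 genes higher and 152 genes lower past them at both times are in red and blue. The cloud runs from lower left to upper right (Pearson's r of 0.56), TTR lies high at 48 h alone and BOLA2B in the upper left.

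Recovered reads on genes ran from 21616676 to 23086025 per library. The library sizes implied by the deposited FPKM were below these sums and lay further apart, at 18357838 in DMSO 24 h, 20283332 in melatonin 24 h, 21930408 in DMSO 48 h and 22205042 in melatonin 48 h, and how the authors took them is not given in the sources used here. Of the 8 hepatocyte markers all were expressed in all libraries, albumin (ALB) at an FPKM of 3109 with DMSO against 3343 with melatonin at 24 h and 2759.5 against 2717 at 48 h. Of these 8 markers limma called 0, with 1 higher and 2 lower at an unadjusted p under 0.05, and 5 had differences of unlike sign at the times (median 0.000974). Of 10 markers of other cell types, 6 stayed under an FPKM of 1 in each library, with the T cell gene CD3E at 0 reads in all 4 libraries. Of the 4 that were tested limma called 1, while 2 were below 0 at both times and 2 had differences of unlike sign. Their mean differences ran from -0.86 to 0.14. The 1 called, the biliary and progenitor keratin KRT19, fell from an FPKM of 62.1 to 33.2 after 24 h and from 34.5 to 18.8 after 48 h (-0.86 ± 0.02, adjusted p = 0.0234).

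Of the 3 genes for melatonin receptors and their relative, MTNR1A had 0, 0, 0 and 1 reads in the libraries (in the order DMSO, melatonin at 24 h, then DMSO, melatonin at 48 h), MTNR1B had 1, 0, 0 and 0, and GPR50 had 0, 0, 0 and 0. At this depth, 3 reads on a gene of 1 kb correspond to an FPKM of 0.135 to 0.163, and no difference in these receptors was detectable. NQO2, a quinone reductase that binds melatonin, had an FPKM of 3.22 with DMSO against 3.45 with melatonin at 24 h and 3.49 against 3.32 at 48 h, with no order between treatments (0.01 ± 0.07). Of the 17 genes for receptors, synthesis and breakdown of melatonin, 3 passed the FPKM minimum, and CYP1A1 was the 1 that passed the test. CYP1A1 (chromosome 15 from 74719542 to 74725610 in hg38), a P450 enzyme that hydroxylates melatonin, had an FPKM of 1.24 with DMSO against 5.55 with melatonin at 24 h and 4.18 against 12.6 at 48 h. Both melatonin libraries were above both DMSO libraries, with melatonin 24 h and DMSO 48 h closest together (1.47 ± 0.08, adjusted p = 0.00544). CYP1A2 and CYP1B1, the other members of the family, had at most 2 reads in any library. SULT1A1, which adds sulfate to hydroxylated melatonin, stood at 10.2 with DMSO against 12.5 with melatonin at 24 h and 6.35 against 9.71 at 48 h (0.41 ± 0.13, adjusted p = 0.138), and its reads can be shared with near-identical SULT1A genes. CYP1A1 is the best known target of the aryl hydrocarbon receptor, AHR. Of 10 tested genes of the AHR pathway CYP1A1 alone passed the test, while the receptor AHR itself was at 5.35 with DMSO against 8.03 with melatonin at 24 h and 7.68 against 9.54 at 48 h (0.39 ± 0.11, adjusted p = 0.145), its repressor AHRR was under the FPKM minimum, and the target NQO1 was at 166 with DMSO against 153 with melatonin at 24 h and 132 against 75.1 at 48 h (-0.46 ± 0.34).

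The promoter of CYP1A1 is shown since it was the 1 enzyme of melatonin breakdown that rose, and that of C10orf10 (DEPP1 in RefSeq) since it was the largest rise among the FOXO-linked genes. Both are the 250 bases before the RefSeq start in GRCh38.p14, on the minus strand, at chr15:74725529-74725778 and chr10:44978810-44979059. Capitals mark TATAAA in both, GCGTG in CYP1A1, from position -57 to -53 before the start, and GTAAACA (the forkhead motif) in C10orf10, from -180 to -174. GCGTG holds the letters of the core of the dioxin response element. The bases around it were not compared with the longer element, so this match is not read as such an element.
CYP1A1: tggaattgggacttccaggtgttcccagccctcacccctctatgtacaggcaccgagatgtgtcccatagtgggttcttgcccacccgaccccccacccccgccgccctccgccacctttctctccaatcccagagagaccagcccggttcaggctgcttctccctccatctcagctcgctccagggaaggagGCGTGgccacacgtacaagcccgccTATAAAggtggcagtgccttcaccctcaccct
C10orf10: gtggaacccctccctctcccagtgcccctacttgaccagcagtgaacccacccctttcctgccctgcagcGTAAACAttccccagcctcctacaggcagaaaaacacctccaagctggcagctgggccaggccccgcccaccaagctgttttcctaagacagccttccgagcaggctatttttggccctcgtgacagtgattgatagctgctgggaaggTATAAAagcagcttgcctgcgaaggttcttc
Among 27305 promoters of this length in the table, 31.9% held GCGTG on either strand, 2.98% GTAAACA and 11.1% TATAAA. Of the 10 promoters found for the 15 largest rises, 5 held GCGTG, 1 held GTAAACA and 3 held TATAAA. Among 8798 promoters of tested genes the shares were 46.6%, 1.91% and 5.23%, and among 77 of genes at least 1.5-fold higher at both times 37 held GCGTG, 2 GTAAACA and 5 TATAAA. Such a match describes letters and not a bound site.

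C10orf10, also known as DEPP1, a gene induced by fasting and by FOXO factors, went from an FPKM of 5.43 to 16.3 after 24 h and from 19.1 to 67.5 after 48 h. Its FPKM in DMSO 48 h was above that in melatonin 24 h, so that the treatment showed within each time and not across times (1.60 ± 0.17, adjusted p = 0.00544). IGFBP1, a secreted binding protein for insulin-like growth factors, behaved in the same way, from 216 to 450.1 after 24 h and from 811 to 1557 after 48 h (1.00 ± 0.06, adjusted p = 0.0212). The largest rise by the smaller of both differences was in GPCPD1 (chromosome 20 from 5544404 to 5611026), a glycerophosphocholine phosphodiesterase. It went from 1.73 to 6.97 after 24 h and from 0.763 to 4.78 after 48 h from 239, 1064, 126 and 799 reads in that order (1.63 ± 0.08, adjusted p = 0.00444), and here both melatonin libraries lay above both DMSO libraries. Counting error alone gives its difference an SD of 0.07 at 24 h and 0.07 at 48 h. DHRS2, a dehydrogenase and the most highly expressed of these genes at 24 h, rose from 237 to 558 after 24 h and from 147 to 553 after 48 h (1.57 ± 0.34).

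MIXL1, a homeobox transcription factor of the embryonic mesendoderm, rose from 9.10 to 23.6 after 24 h and from 1.69 to 9.32 after 48 h, with DMSO 24 h close to melatonin 48 h (1.61 ± 0.33). MEGF6, an EGF-repeat protein, went from 1.22 to 4.23 after 24 h and from 0.512 to 5.15 after 48 h (1.63 ± 0.39), and LFNG, which adds sugars to Notch receptors, from 0.574 to 2.18 after 24 h and from 0.987 to 6.10 after 48 h (1.43 ± 0.41). In both, the difference at 48 h was larger than at 24 h. Mitochondrial enzymes were among the rises, with LDHD, which oxidises D-lactate, at 1.22 ± 0.22 and OGDHL, a relative of the oxoglutarate dehydrogenase subunit, at 1.24 ± 0.33. CAPN5, a calpain protease, rose from the lowest FPKM of these genes in DMSO 24 h, from 0.389 to 1.92 after 24 h and from 0.703 to 3.11 after 48 h (1.17 ± 0.10), and rested on 44, 240, 95 and 426 reads. ARRDC3, an arrestin-like protein that restrains beta-adrenergic receptors, stood at 1.10 ± 0.10, IVNS1ABP, a kelch-repeat protein, at 1.05 ± 0.08, and the zinc finger gene ZNF70 at 0.92 ± 0.01. The adjusted p-values of these 15 rises ran from 0.00444 to 0.0214.

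**Figure D2:**
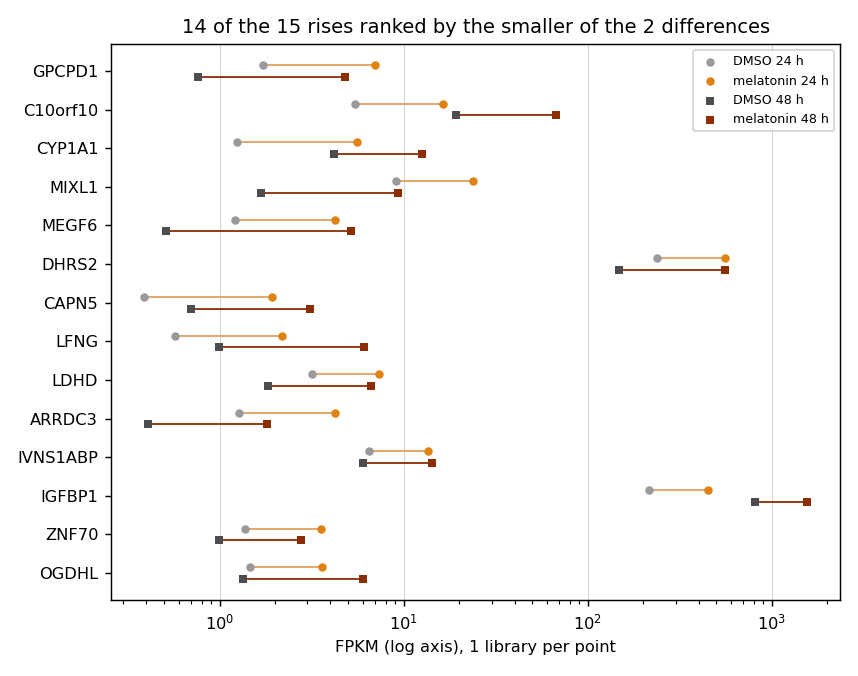
FPKM in each of the 4 libraries (log axis) of 14 of the 15 genes that rose most by the lesser of the differences at 24 h and 48 h. Circles are 24 h and squares 48 h, grey is DMSO and orange or brown is melatonin, and a line joins the libraries of 1 time. Each melatonin point lies to the right of its DMSO point, while C10orf10, IGFBP1, CYP1A1, LFNG and CAPN5 also lie further right at 48 h than at 24 h in both treatments.

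The 15 deepest falls included secreted proteins of the hepatocyte and proteins of the cell's outer layer and skeleton. ODAM, a secreted protein of enamel epithelium, went from an FPKM of 17.3 to 4.39 after 24 h and from 15.998 to 2.31 after 48 h (-2.06 ± 0.30, adjusted p = 0.00444). C8A, the alpha chain of complement component C8, fell from 12.7 to 3.35 after 24 h and from 10.5 to 1.72 after 48 h, on 549, 160, 542 and 90 reads (-1.87 ± 0.21, adjusted p = 0.00444). CPB2, a plasma carboxypeptidase that slows the lysis of clots, fell from 59.6 to 18.9 after 24 h and from 74.7 to 11.2 after 48 h (-2.12 ± 0.51, adjusted p = 0.0058). In all 3 genes both melatonin libraries were below both DMSO libraries, and the gap was wider at 48 h. HPX, the heme-binding plasma protein hemopexin, fell from 6.09 to 2.01 after 24 h and from 2.93 to 0.322 after 48 h (-1.40 ± 0.17). ANG, the secreted ribonuclease angiogenin, fell from 17.6 to 7.21 after 24 h and from 27.9 to 9.76 after 48 h (-1.30 ± 0.12), and PLA2G2A, a secreted phospholipase, from 5.95 to 1.96 after 24 h and from 4.47 to 0.588 after 48 h (-1.51 ± 0.28). Again the treatments did not overlap.

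SULT2A1, which sulfates bile acids and steroids, fell from 27.1 to 11.3 after 24 h and from 43.3 to 17.1 after 48 h, with nearly the same difference at both times (-1.24 ± 0.05, adjusted p = 0.0058). PLIN2, the coat protein of lipid droplets, was as steady, from 54.5 to 22.7 after 24 h and from 50.1 to 18.97 after 48 h (-1.29 ± 0.07, adjusted p = 0.0058). The secreted phosphoprotein SPP1 (osteopontin) fell from 208 to 88.9 after 24 h and from 265 to 84.1 after 48 h (-1.43 ± 0.21). AJUBA, a LIM-domain scaffold at cell junctions, fell from 61.4 to 25.9 after 24 h and from 86.004 to 27.8 after 48 h (-1.40 ± 0.19). TAGLN, an actin-binding protein, was at -1.26 ± 0.07, the keratin KRT23 at -1.49 ± 0.23 and the calcium-binding protein SCGN at -1.37 ± 0.11. CA9, a carbonic anhydrase known as a hypoxia target, fell from 3.59 to 1.004 after 24 h and from 3.69 to 0.674 after 48 h (-1.34 ± 0.14). UNC93A, a membrane protein, was the 1 gene of the 15 with the larger difference at 24 h, from 5.09 to 0.639 after 24 h and from 2.26 to 0.484 after 48 h (-1.51 ± 0.38). The adjusted p-values of these 15 falls ran from 0.00444 to 0.0111, and all 15 rises and 15 falls passed the test also after TPM scaling, centring and the correction for GC content and length.

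**Figure D3:**
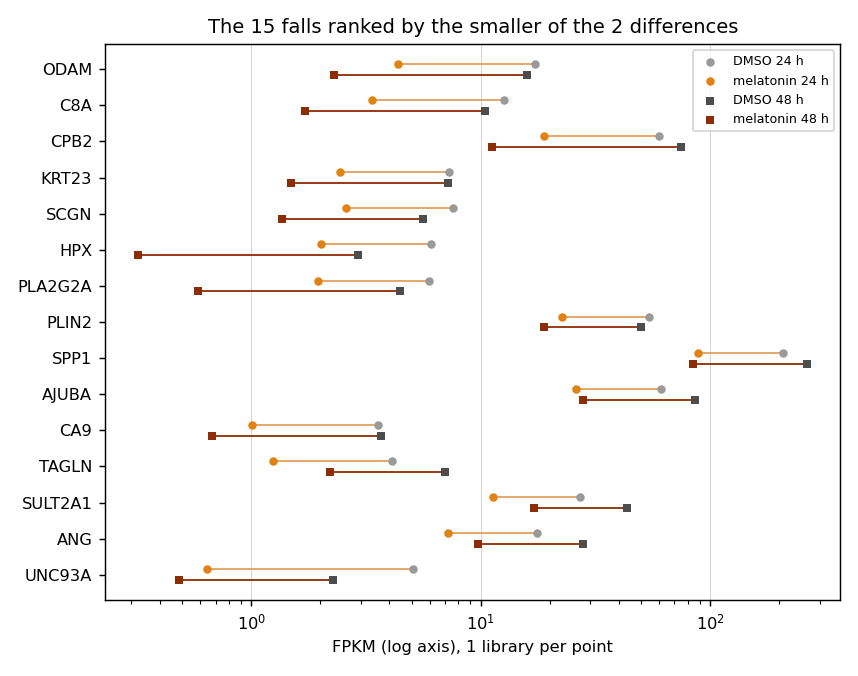
FPKM in each of the 4 libraries (log axis) of the 15 genes that fell most by the lesser of the differences at 24 h and 48 h, with marks as in the plot of the rises. Each melatonin point lies to the left of its DMSO point, from SPP1 at 265 in DMSO 48 h down to HPX at 0.322 in melatonin 48 h.

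The promoters of 3 falls are shown since they held TTGCNNAA, letters of the site bound by C/EBP factors of the liver, in capitals, read on the opposite strand in CPB2. They are the 250 bases before the RefSeq start in GRCh38.p14, on the minus strand, at chr13:46105034-46105283, chr11:6440988-6441237 and chr19:47886316-47886565. The match lies from -42 to -35 in CPB2, from -203 to -196 in HPX and from -150 to -143 in SULT2A1.
CPB2: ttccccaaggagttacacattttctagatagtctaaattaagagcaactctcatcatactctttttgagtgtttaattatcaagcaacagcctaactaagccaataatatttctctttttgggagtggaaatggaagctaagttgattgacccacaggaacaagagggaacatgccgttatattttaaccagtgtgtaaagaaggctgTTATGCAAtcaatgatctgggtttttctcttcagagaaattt
HPX: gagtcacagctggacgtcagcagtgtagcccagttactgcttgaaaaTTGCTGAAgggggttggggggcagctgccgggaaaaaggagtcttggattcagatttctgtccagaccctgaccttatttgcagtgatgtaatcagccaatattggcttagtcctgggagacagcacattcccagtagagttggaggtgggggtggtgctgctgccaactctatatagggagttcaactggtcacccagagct
SULT2A1: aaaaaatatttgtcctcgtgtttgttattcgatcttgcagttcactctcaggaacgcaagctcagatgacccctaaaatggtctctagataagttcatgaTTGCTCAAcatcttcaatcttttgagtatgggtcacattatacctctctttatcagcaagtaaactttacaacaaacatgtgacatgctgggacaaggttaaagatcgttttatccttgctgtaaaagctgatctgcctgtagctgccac
TTGCNNAA was in 3 of the 13 promoters found for the 15 falls and in 0 of 10 for the rises, and in 9.13% of all 27305. Among promoters found for genes past 1.5-fold at both times it was in 14 of 112 for lower genes and 3 of 77 for higher genes, against 5.89% of 8798 promoters of tested genes. CAAAGTC (HNF4) was in 9 of 112 and 1 of 77, against 2.17%. CACGTG (the E-box) was in 9 of 112 and 7 of 77, against 9.08%. Words were searched on both strands, and no test was made of these shares.

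Complement, the plasma cascade that opens microbial membranes, held 24 tested genes of 37, of which 7 fell and 0 rose, with 1 higher at an unadjusted p under 0.05. Its median mean difference was -0.32, against 0.02 over all genes tested. For this list and those below, the shares over all genes tested were 1.77% that rose and 2.13% that fell. At an unadjusted p under 0.05 there were 2397 of all 10750 genes, both directions together. A single call in a list is near these shares and is not read as a result about the list. Besides C8A, the falls included C8B, its partner chain, from 2.91 to 1.34 after 24 h and from 3.88 to 0.264 after 48 h (-1.35 ± 0.60, adjusted p = 0.0307), a call lost after the correction. CFI, the protease that inactivates C3b, fell from 66.5 to 34.5 after 24 h and from 68.3 to 16.4 after 48 h (-1.46 ± 0.54, adjusted p = 0.0234). The lectin MBL2 (-0.84 ± 0.04), the inhibitor chain C4BPB (-0.94 ± 0.18), the protease C1S and vitronectin (VTN) also fell, with VTN lost after centring and the correction. SERPING1, the C1 inhibitor, lay on the other side, from 1.38 to 2.45 after 24 h and from 2.000 to 3.45 after 48 h, but missed the threshold (0.55 ± 0.02, adjusted p = 0.0606).

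In coagulation and fibrinolysis 3 of 24 tested genes fell and 0 rose, also 0 at an unadjusted p under 0.05, with a median of -0.23. Beside CPB2 these were factor XI (F11), from 10.7 to 5.98 after 24 h and from 10.5 to 5.45 after 48 h (-0.79 ± 0.05, adjusted p = 0.0259), and heparin cofactor II (SERPIND1), from 179 to 101 after 24 h and from 187 to 129.9 after 48 h (-0.67 ± 0.15, adjusted p = 0.0456). The call of SERPIND1 was lost after centring, with TPM and after the correction. With TPM the median of the list was 0.04 at 24 h and -0.28 at 48 h. Of the fibrinogen chain FGB the FPKM was 91.2 with DMSO against 71.8 with melatonin at 24 h and 78.9 against 59.5 at 48 h, and this missed the threshold (-0.37 ± 0.03, adjusted p = 0.158). Of 28 tested plasma proteins 9 fell and 1 rose, with a median of -0.48. With TPM the median was -0.06 at 24 h and -0.68 at 48 h. APOH, a highly expressed phospholipid-binding protein, fell from 945 to 457 after 24 h and from 919 to 229 after 48 h (-1.52 ± 0.48, adjusted p = 0.0185). The orosomucoids ORM1 (-1.13 ± 0.34) and ORM2 (-0.88 ± 0.14) fell as well, although these near-identical copies may share reads. Haptoglobin (HP), ceruloplasmin (CP) and thyroxine-binding globulin (SERPINA7) were among the falls. HAMP, the iron hormone hepcidin, was the 1 that rose, from 1.97 to 4.42 after 24 h and from 1.80 to 3.77 after 48 h (0.82 ± 0.05, adjusted p = 0.0256). Transthyretin (TTR) differed at 48 h alone, at 41.9 with DMSO against 46.8 with melatonin at 24 h and 50.6 against 256 at 48 h, and so missed the threshold (1.23 ± 1.08, adjusted p = 0.116). Albumin differed by 0.11 at 24 h and -0.02 at 48 h.

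**Figure D4:**
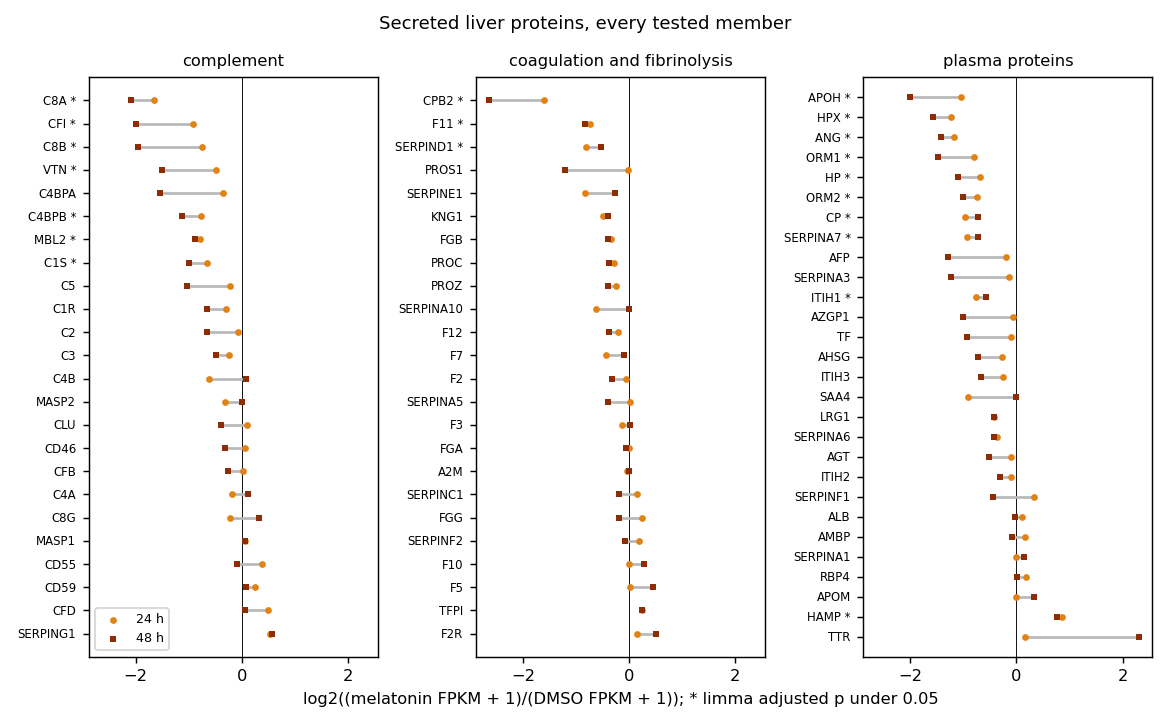
Difference at 24 h (circles) and 48 h (squares) on the log2(FPKM + 1) scale for each tested gene of complement (24), coagulation and fibrinolysis (24) and plasma proteins (28), joined by a line. Stars mark genes that passed limma. All starred genes but HAMP lie left of 0 at both times, and most lines reach further left at 48 h, while TTR is near 0 at 24 h and far right at 48 h.

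Among apolipoproteins and the assembly of very low density lipoprotein, 4 of 19 tested genes fell and 1 rose, with a median of -0.46. APOF, an inhibitor of lipid transfer, fell from 5.02 to 1.75 after 24 h and from 3.51 to 1.18 after 48 h (-1.09 ± 0.04, adjusted p = 0.0112). APOA5 (-0.72 ± 0.03) and ANGPTL4 (-0.79 ± 0.20), which act on lipoprotein lipase in opposite ways, and APOA4 (-0.67 ± 0.17) fell. These 3 calls were lost after the correction, that of APOA5 also with TPM and that of APOA4 also after centring. APOA2, a main protein of high density lipoprotein, rose from 999.9 to 1561 after 24 h and from 1629.8 to 2854 after 48 h (0.72 ± 0.08, adjusted p = 0.0434), a call lost with mitochondrial genes left out of the scaling, after centring and after the correction.

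Of 26 tested liver transcription factors 4 fell and 1 rose, with a median of -0.15. NR1H4, the bile acid receptor FXR, fell from 12.4 to 5.84 after 24 h and from 14.3 to 4.33 after 48 h, with no overlap between treatments (-1.25 ± 0.27, adjusted p = 0.0122). NR0B2 (SHP), a repressor that FXR is known to induce, went the other way, from 32.7 to 67.7 after 24 h and from 49.1 to 76.4 after 48 h (0.83 ± 0.20, adjusted p = 0.0307). NR2F2 (-0.81 ± 0.09) and the membrane-bound factor CREB3L3 (-0.66 ± 0.18) fell. HNF4A, the central factor of the hepatocyte, was at 59.5 with DMSO against 53.7 with melatonin at 24 h and 34.9 against 43.8 at 48 h (0.09 ± 0.23, adjusted p = 0.788). In bile acid and steroid metabolism 3 of 17 fell and 1 rose (median -0.19). Beside SULT2A1 the falls were BAAT, which couples bile acids to glycine or taurine (-0.66 ± 0.01), and AKR1D1, a steroid reductase of bile acid synthesis (-0.78 ± 0.25). HSD17B2, which inactivates estradiol and testosterone, rose from 2.65 to 4.08 after 24 h and from 3.65 to 12.9 after 48 h (1.03 ± 0.55, adjusted p = 0.0468). The calls of CREB3L3, BAAT, AKR1D1 and HSD17B2 were lost after centring and after the correction, and that of AKR1D1 also with an FPKM minimum of 5.

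Of 12 tested cytochrome P450 genes outside the CYP1 family 2 rose and 0 fell, with 1 lower at an unadjusted p under 0.05, and the median of 0.45 was the highest of the lists with over 10 tested genes. CYP24A1, which breaks down vitamin D, rose from 5.49 to 8.17 after 24 h and from 4.88 to 10.1 after 48 h (0.71 ± 0.21, adjusted p = 0.0428), and CYP2S1 rose from 3.92 to 5.78 after 24 h and from 3.06 to 6.36 after 48 h (0.66 ± 0.20, adjusted p = 0.0484). Both calls were lost after centring and after the correction, and that of CYP2S1 also with an FPKM minimum of 5. Of 17 tested conjugation enzymes 4 fell and 1 rose, while their median was 0.19. UGT2B7, a glucuronosyltransferase of steroids and drugs with close paralogs, fell from 12.3 to 6.77 after 24 h and from 14.1 to 4.27 after 48 h (-1.15 ± 0.37), and GSTZ1, which also breaks down tyrosine, rose from 1.48 to 2.63 after 24 h and from 0.742 to 2.40 after 48 h (0.76 ± 0.21), a call lost after centring and the correction.

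Of 28 tested genes of cholesterol synthesis 3 rose and 0 fell, with 14 higher and 2 lower at an unadjusted p under 0.05 and a median of 0.33. The medians by time were 0.18 at 24 h and 0.46 at 48 h. With mitochondrial genes left out of the scaling the 24 h median was 0.01, and limma called 4 genes higher and 1 lower. The sterol reductase TM7SF2 rose from 22.4 to 38.4 after 24 h and from 6.77 to 16.2 after 48 h (0.95 ± 0.20, adjusted p = 0.0235), and the methylsterol oxidase MSMO1 rose from 27.4 to 43.03 after 24 h and from 10.9 to 27.8 after 48 h (0.95 ± 0.32, adjusted p = 0.0297). The decarboxylase MVD followed (0.68 ± 0.19). The calls of MSMO1 and MVD were lost after the correction, and that of MVD also after centring. Over all genes tested 1.77% rose and 2.13% fell. In lipogenesis, 2 of 24 tested genes fell, PLIN2 and the acyltransferase GPAM, and 1 rose, the acyl-CoA synthetase ACSL3, from 48.5 to 85.6 after 24 h and from 43.3 to 61.9 after 48 h (0.65 ± 0.15), with a median of 0.13. The calls of GPAM and ACSL3 were lost after centring, with TPM and after the correction, and that of GPAM also without the trend in the variance prior. In fatty acid oxidation 1 of 20 tested genes rose, the coactivator PPARGC1A, from 2.41 to 5.54 after 24 h and from 6.53 to 9.44 after 48 h (0.71 ± 0.23, adjusted p = 0.0456), and 0 fell, with 2 lower at an unadjusted p under 0.05. The call of PPARGC1A was lost after centring and after the correction.

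In glycolysis and gluconeogenesis 2 of 26 tested genes rose and 1 fell, with a median of -0.35. The glucose transporters parted. SLC2A1 (GLUT1) rose from 284 to 437 after 24 h and from 305 to 524 after 48 h (0.70 ± 0.08, adjusted p = 0.0424), while SLC2A3 (GLUT3) fell from 83.8 to 33.3 after 24 h and from 25.9 to 16.6 after 48 h (-0.96 ± 0.35, adjusted p = 0.0325). PCK2, the mitochondrial enzyme that makes phosphoenolpyruvate, rose from 91.5 to 143 after 24 h and from 55.7 to 85.5 after 48 h (0.62 ± 0.01). The calls of these 3 genes were lost after the correction, those of SLC2A1 and PCK2 also after centring and with mitochondrial genes left out of the scaling, and that of PCK2 also with TPM. Lactate dehydrogenase LDHA was lower mainly at 24 h, at 237 with DMSO against 119 with melatonin at 24 h and 76.9 against 64.5 at 48 h (-0.62 ± 0.37, adjusted p = 0.101). Of 18 genes of the urea cycle and amino acid breakdown 1 fell, HPD of tyrosine breakdown (-0.73 ± 0.17), and 0 rose, with 2 higher at an unadjusted p under 0.05. The call of HPD was lost with TPM and after the correction.

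Of 29 tested FOXO-linked genes 4 rose and 0 fell, with 4 lower at an unadjusted p under 0.05 and a median of 0.12, which was 0.21 at 24 h and -0.03 at 48 h. After C10orf10 and IGFBP1 came SESN3, a sestrin that restrains mTOR signalling, from 0.0824 to 0.597 after 24 h and from 0.0992 to 1.49 after 48 h (0.87 ± 0.31, adjusted p = 0.0411), and the death ligand TNFSF10, from 0.910 to 1.83 after 24 h and from 0.880 to 2.59 after 48 h (0.75 ± 0.18). Both of these calls were lost after centring and after the correction. The list was written with earlier results of these data known, so its counts are no independent evidence of its direction. Of 14 tested genes of the IGF system IGFBP1 alone rose and 0 fell, with 3 lower at an unadjusted p under 0.05. IGF2, the fetal growth factor, was at 312 with DMSO against 213 with melatonin at 24 h and 119 against 93.3 at 48 h (-0.45 ± 0.10).

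Of 45 tested DNA replication genes 27 were above 0 at both times and 0 were below at both times, with medians of 0.08 at 24 h and 0.72 at 48 h. Over all 10750 genes tested, 4006 were above 0 at both times and 3272 below. The sign at 24 h depended on the scaling, with a median of -0.09 when mitochondrial genes were left out of it. Of the 45 genes 2 rose and 0 fell, with 20 higher and 0 lower at an unadjusted p under 0.05. RFC3, of the clamp loader, rose from 11.998 to 17.5 after 24 h and from 4.41 to 12.8 after 48 h (0.93 ± 0.42, adjusted p = 0.0424), and RRM2, a ribonucleotide reductase subunit, from 11.9 to 16.8 after 24 h and from 3.67 to 8.11 after 48 h (0.71 ± 0.25, adjusted p = 0.0456). Of G1 regulators 2 of 25 rose and 1 fell, with medians of 0.11 at 24 h and 0.05 at 48 h. E2F1, an activator of S phase genes, rose from 31.5 to 50.2 after 24 h and from 17.2 to 69.97 after 48 h (1.31 ± 0.65, adjusted p = 0.0379), and cyclin E1 (CCNE1) rose from 6.71 to 9.84 after 24 h and from 4.36 to 10.7 after 48 h (0.81 ± 0.32). The calls of these 4 genes were lost after centring and after the correction. CDKN1A (p21), an inhibitor of cyclin-dependent kinases and a p53 target, fell from 25.3 to 16.2 after 24 h and from 60.3 to 26.6 after 48 h (-0.88 ± 0.27, adjusted p = 0.0307). In mitosis 0 of 34 genes passed, with 7 at an unadjusted p under 0.05. The list's median was -0.04 at 24 h and 0.43 at 48 h, while the mitotic kinase PLK1 was lower at both times, at 36.5 with DMSO against 25.7 with melatonin at 24 h and 21.6 against 14.9 at 48 h (-0.50 ± 0.01, adjusted p = 0.0751). Among 28 p53 targets, CDKN1A and PHLDA3 (-0.61 ± 0.07) fell and TP53I3 (0.67 ± 0.15) rose. These 3 calls were lost after the correction, those of PHLDA3 and TP53I3 also after centring and that of PHLDA3 also with TPM.

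The amino acid response list of ATF4 had opposite medians, 0.36 at 24 h and -0.41 at 48 h, and 21 of its 28 tested genes had differences of unlike sign, while PCK2 was the 1 that rose and 0 fell, with 3 lower at an unadjusted p under 0.05. Of 23 ER chaperones CREB3L3, a stress-sensing factor placed on this list, fell and 0 rose, with 0 higher and 10 lower at an unadjusted p under 0.05. Of these chaperones 14 were below 0 at both times and 0 above. For comparison with the counts of this paragraph, 3272 of all 10750 genes were below 0 at both times and 4006 above. The median of the chaperones was -0.04 at 24 h and -0.61 at 48 h. The sign at 24 h depended on the scaling, with a median of 0.12 with TPM and 0.02 with the sum of recovered reads. HSPA5 (BiP), the main chaperone of the list, was at 560.2 with DMSO against 478 with melatonin at 24 h and 957 against 503 at 48 h (-0.58 ± 0.35, adjusted p = 0.123). Of 18 heat shock proteins the small chaperone HSPB1 fell from 22.2 to 10.2 after 24 h and from 31.6 to 9.67 after 48 h (-1.33 ± 0.28, adjusted p = 0.0111) and 0 rose, with 1 higher and 4 lower at an unadjusted p under 0.05, and 10 were below 0 at both times and 2 above. Of 35 NRF2 targets and antioxidant enzymes 0 fell, with 5 higher and 6 lower at an unadjusted p under 0.05. PGD, an oxidative enzyme of the pentose phosphate pathway, was at 74.6 with DMSO against 102 with melatonin at 24 h and 48.1 against 84.4 at 48 h and missed the threshold (0.62 ± 0.18, adjusted p = 0.0557). The metal-binding MT2A rose from 14.2 to 22.2 after 24 h and from 14.3 to 23.2 after 48 h (0.64 ± 0.03), though metallothionein copies may share reads, and the manganese exporter SLC30A10 fell from 6.73 to 3.96 after 24 h and from 3.57 to 1.99 after 48 h (-0.63 ± 0.01). Both calls were lost after centring and the correction, that of MT2A also with TPM and that of SLC30A10 also with an FPKM minimum of 5. Of 21 hypoxia targets CA9 fell and SLC2A1 rose, and 13 were below 0 at both times and 1 above (median -0.21). Over all 10750 genes these counts were 3272 below and 4006 above.

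Of 18 tested YAP and TEAD targets 3 fell and 0 rose, with 1 higher at an unadjusted p under 0.05. These were AJUBA, the cardiac ankyrin repeat protein ANKRD1, from 12.5 to 5.66 after 24 h and from 13.2 to 5.30 after 48 h (-1.10 ± 0.08, adjusted p = 0.0111), and AMOTL2, from 5.98 to 3.79 after 24 h and from 10.04 to 4.63 after 48 h (-0.76 ± 0.21), whose call was lost after the correction. The secreted matrix proteins of this list parted, CYR61 at 11.2 with DMSO against 7.09 with melatonin at 24 h and 12.9 against 8.60 at 48 h and CTGF at 83.2 with DMSO against 96.1 with melatonin at 24 h and 116 against 200.6 at 48 h, and neither passed. HepG2 is known to carry an activating deletion in beta-catenin, the effector of Wnt signalling. Among 15 tested Wnt targets 3 fell and 2 rose. The antagonist DKK1 fell from 36.7 to 19.7 after 24 h and from 18.7 to 6.21 after 48 h (-1.16 ± 0.29, adjusted p = 0.0185), and the feedback genes AXIN2 (-0.78 ± 0.13) and NKD1 (-0.87 ± 0.27) fell, with NKD1 lost after the correction. NKD2 (0.63 ± 0.04) and NOTUM, a secreted deacylase of Wnt proteins, rose, the latter from 261 to 389.8 after 24 h and from 354 to 575 after 48 h (0.64 ± 0.06, adjusted p = 0.0486), and both of these calls were lost after centring and the correction, that of NOTUM also with TPM and with mitochondrial genes left out of the scaling. Of 19 immediate early genes the phosphatases DUSP6, from 11.2 to 21.6 after 24 h and from 15.01 to 24.2 after 48 h (0.77 ± 0.12), and DUSP5 (0.67 ± 0.05) rose and DUSP1 (-0.66 ± 0.08) fell. The calls of DUSP5 and DUSP1 were lost after the correction, that of DUSP5 also after centring and that of DUSP1 also with TPM. In the NF-kappaB list IL32 (-0.74 ± 0.06) and the feedback inhibitor TNFAIP3, from 19.002 to 12.1 after 24 h and from 16.8 to 9.25 after 48 h (-0.70 ± 0.09), fell out of 21 tested, and 0 rose, 0 also at an unadjusted p under 0.05. Both calls were lost with TPM, and that of IL32 also after the correction.

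In the extracellular matrix list of 23 tested genes the proteoglycan BGN rose from 2.75 to 5.81 after 24 h and from 1.13 to 4.61 after 48 h (1.13 ± 0.27, adjusted p = 0.0191) and SPP1 fell. In the lysosome and autophagy list WIPI1, which marks forming autophagosomes, rose from 4.40 to 8.42 after 24 h and from 9.62 to 16.7 after 48 h (0.77 ± 0.03, adjusted p = 0.0268), alone of 28, and 0 fell, with 2 lower at an unadjusted p under 0.05. Among 26 SR proteins and hnRNPs, which guide splicing, 19 were below 0 at both times and 1 above, and the median was -0.24 (-0.19 at 24 h and -0.29 at 48 h). Over all 10750 genes tested, 3272 were below 0 at both times and 4006 above. With TPM the median at 24 h was -0.02. HNRNPM fell from 73.1 to 46.7 after 24 h and from 55.5 to 34.99 after 48 h (-0.64 ± 0.01, adjusted p = 0.0424), a call lost with TPM and after the correction, and 0 rose, 0 also at an unadjusted p under 0.05.

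In 7 other lists limma called 0 genes. Over all genes tested, 2397 of 10750 were at an unadjusted p under 0.05, and counts near that share are not read as results. At an unadjusted p under 0.05 there were 6 of 25 interferon-stimulated genes, 6 of 18 core clock genes, 1 of 24 nucleolar ribosome biogenesis genes, 1 of 18 splicing kinases and regulated factors, 1 of 32 nuclear genes of the respiratory chain, 0 of 37 ribosomal protein genes and 0 of 13 genes of the mitochondrial genome. The clock repressor PER2, which follows the daily rhythm that melatonin is known to time, was at 6.90 with DMSO against 5.47 with melatonin at 24 h and 5.18 against 3.61 at 48 h (-0.35 ± 0.07, adjusted p = 0.168). Ribosomal proteins kept within a mean difference of -0.18 to 0.27. The mitochondrial genome had medians of opposite sign, -0.40 at 24 h and 0.19 at 48 h.

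**Figure D5:**
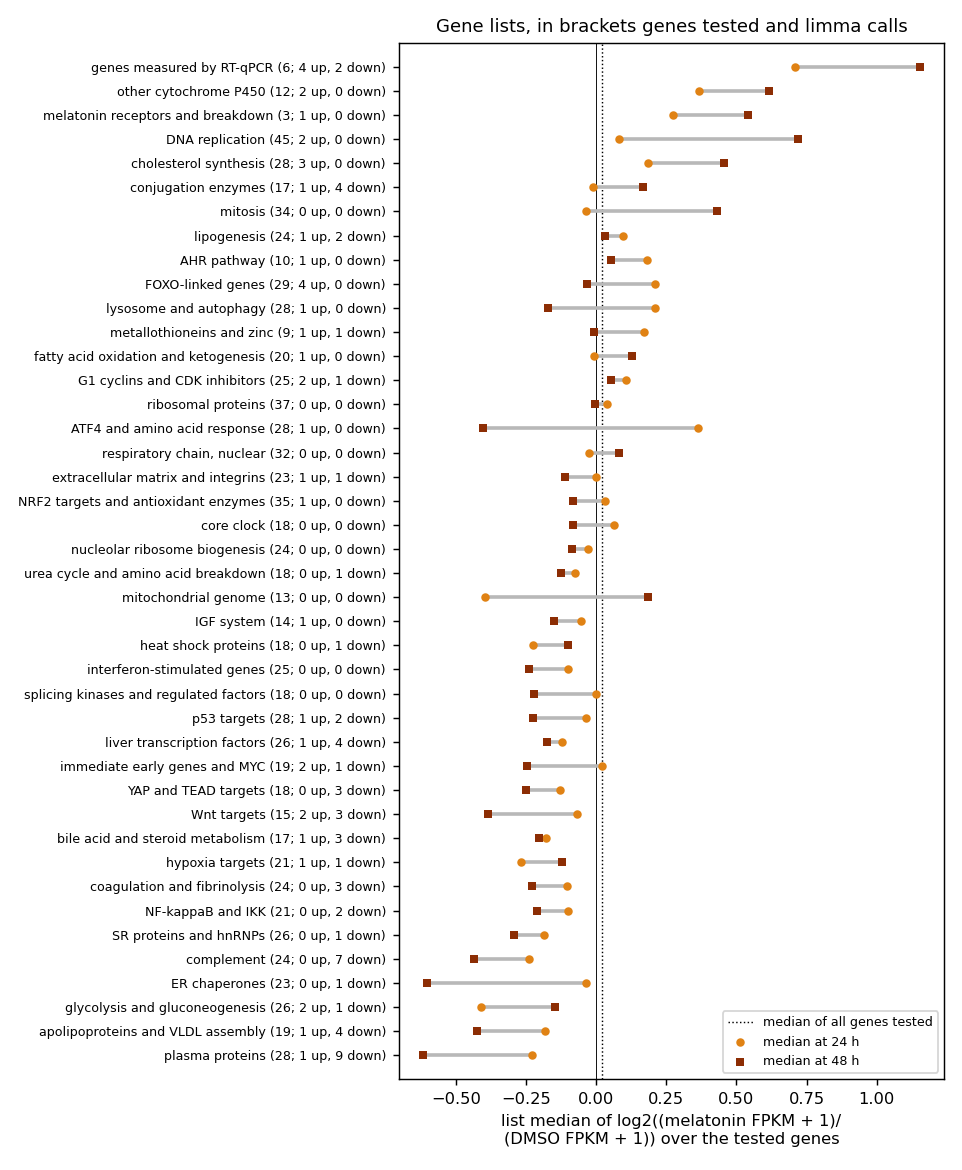
Median difference of each gene list at 24 h (circles) and at 48 h (squares) on the log2(FPKM + 1) scale, with the genes tested and the limma calls in brackets and a dotted line at the median of all genes. Plasma proteins, apolipoproteins and complement lie left of 0 at both times, cytochrome P450 and cholesterol synthesis right of 0, and the ATF4 list and the mitochondrial genome change sides.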

How the data were processed

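mRNA-seq libraries of HepG2 cells were analysed, 1 for each treatment and time. By the study's methods, reads were mapped to hg38 with MapSplice and expression was taken with Cufflinks, whereas the submitters' processing notes list Bowtie2 2.0.6, TopHat2 2.0.9, Cufflinks 2.1.1 and Cuffdiff 2.1.1 without a role. The authors deposited FPKM per gene, divided by gene length and a library size, with no counts. The length of each gene in bp is also deposited, as another kind of value whose derivation is not given in the sources used here, and neither is strandedness.

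The product of FPKM and length came in whole steps for 100% of values above 0 (tolerance 0.01 reads), and the steps gave the reads per gene. The depth was 21616676 to 23086025 reads per library, and intervals or floors (3 reads) cover counting error only. Values were compared as log2(FPKM + 1), with a pseudocount of 1. limma 3.58.1 in R 4.3.3 was fitted to all 10750 genes with terms for time and treatment and a trended prior (7.66 prior degrees of freedom), with Benjamini-Hochberg adjustment. The pairing by time is thus in the main fit. Each library is the single replicate of its group. The p-values weigh a difference against the disagreement of the times, in the gene itself and, through the prior, in other genes. They hold no spread between cultures, since nothing says that the libraries are separate cultures. Scripts were tested on simulated data (Python 3.11).

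The members and the 44 gene lists were chosen with earlier results of these data known. Genes were named by rule: the 15 rises and the 15 falls ranked first by the smaller difference where a library held at least 50 reads, up to 5 members of each list in its direction and 2 the other way, the RT-qPCR genes, the melatonin and AHR lists, and up to 6 genes that changed oppositely. C1S, VTN, HP, CP, SERPINA7, GPAM, ALB, CD3E and HNF4A were chosen after their values were seen. Alternatives were another pseudocount (0.1), FPKM minimum (5 or none), TPM, centring, scaling without mitochondrial genes, 50 reads, other biotypes, a correction for GC content and length (GC from GENCODE 44, found for 99.8% of genes), each time alone, other limma settings and, chosen after seeing the data, the sum of recovered reads as library size. Promoters are from RefSeq on GRCh38.p14. Some promoter windows overlap the gene span of the files, whose annotated start differs. Gene coordinates are those of the files. Results of a few genes, 1 of them among the 15 rises, are not reported here.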

Additional observations from a re-analysis of the deposited data

Results flagged for a closer look

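At least 1.5-fold, 4 genes went in opposite directions at 24 h and 48 h, and the difference between the times was not tested, since each time has 1 library per treatment. BOLA2B went from an FPKM of 18.2 to 1.08 after 24 h and from 10.2 to 17.2 after 48 h, with the mean 1.95 from either time. SERF1B went from 0.446 to 2.75 after 24 h and from 4.18 to 1.23 after 48 h, at a distance of 1.30, and MAGED4B from 0.551 to 2.31 after 24 h and from 1.83 to 0.273 after 48 h, at a distance of 1.12. These 3 have near-identical copies in the genome that can share their reads. The histone gene HIST1H2AE went from 1.07 to 2.13 after 24 h and from 1.61 to 0.708 after 48 h, at a distance of 0.61, on 10, 22, 18 and 8 reads (DMSO and melatonin at 24 h, then at 48 h).

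Genes of other biotypes were outside the comparison. Of 2738 such genes of at least 200 bp with an FPKM of at least 1, 1267 had at least 50 reads in a library, and of these 78 were at least 1.5-fold lower with melatonin at both times and 15 were higher. Of 10626 protein-coding genes with at least 50 reads, 151 were lower and 102 higher by this rule. The balance among other biotypes was not examined under the other scalings. Among them the snoRNA host transcripts SNHG3 (from 12.4 to 6.96 after 24 h and from 19.4 to 7.09 after 48 h) and SNHG4 (from 12.1 to 6.27 after 24 h and from 14.6 to 6.29 after 48 h) were lower. The antisense transcript CEBPA-AS1 (from 3.15 to 6.03 after 24 h and from 0.705 to 3.93 after 48 h) was higher. These genes were chosen after their values were seen, and larger differences were present in both directions. The highest mean difference was in the non-coding AC005224.4, from 31.3 to 85.2 after 24 h and from 7.31 to 40.9 after 48 h.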

How the results depend on the processing

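With 1 library per group, no culture could be left out, and each time was left out instead. The counts past 1.5-fold at both times (104 higher, 152 lower) became 718 and 676 without the 24 h libraries and 202 and 289 without the 48 h libraries. They were 9 and 21 at 2-fold, 294 and 340 for a mean of at least 1.5-fold above its distance to either time, 262 and 294 with a pseudocount of 0.1, and 193 and 90 with TPM. The lower count was 295 with all biotypes and 263 with mitochondrial genes left out of the scaling. The limma counts (190 higher, 229 lower) were 73 and 98 after GC and length correction, 59 and 144 with all biotypes, and 0 and 0 both with no FPKM minimum and with no term for time. The higher count was 73 after centring, 362 with TPM and 511 with the sum of recovered reads, and the lower count was 441 without mitochondrial genes. With no FPKM minimum the smallest adjusted p among the 30 largest rises and falls was 0.182, over 15991 genes tested. The median of all genes (0.02) was 0.0667 with TPM, 0.0588 with the sum of reads, -0.0114 without mitochondrial genes and -0.00494 at 48 h alone.

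Of 44 list medians, 15 changed sign at 1 time alone, among them those of the FOXO-linked genes at 48 h (-0.0316), the conjugation enzymes at 24 h (-0.0126) and the immediate early genes at 24 h (0.0221). Under the other alternatives 5 list medians changed sign, each within 0.0286 of 0. No called gene of the named ones changed sign under the alternatives run for single genes. Of the 95 called, all 95 lost the call with no FPKM minimum and with no term for time, 44 with all biotypes, 40 after GC and length correction, 28 after centring, 12 with TPM, 4 without mitochondrial genes and 3 of 78 tested with an FPKM minimum of 5. The causes were not tested. Depth limits the receptors of melatonin, which had at most 1 read. No paired analysis beyond the pairing by time was possible because each group has 1 library.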

Other observations

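The genes of this paragraph and the next were chosen after their values were seen, and no test was made of the groups. FST, INHBE and INHA, genes of the activin system, differed at both times, and the other genes of that system were not counted. FST, follistatin, which binds and blocks activins, was higher with melatonin, from an FPKM of 15.2 to 47.96 after 24 h and from 74.01 to 126 after 48 h (1.18 ± 0.42). INHBE, the beta E subunit of activin, made mainly by the liver, was lower, from 14.5 to 7.72 after 24 h and from 31.1 to 7.35 after 48 h (-1.39 ± 0.56), and INHA, the inhibin alpha subunit, was lower as well, from 7.61 to 0.619 after 24 h and from 2.26 to 0.771 after 48 h (-1.65 ± 0.76). INHA rested on 245, 22, 87 and 30 reads (DMSO and melatonin at 24 h, then at 48 h), with a difference of -2.41 at 24 h and -0.88 at 48 h.

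Of all 10750 genes tested, 1.41% were at least 1.5-fold lower at both times and 0.967% were higher. Of 215 tested solute carriers, 14 were lower by this rule and 6 were higher, and their median mean difference was 0.03. The lower ones included the amino acid carriers SLC38A5, from 26.98 to 15.96 after 24 h and from 38.6 to 12.8 after 48 h (-1.12 ± 0.40), and SLC1A2, from 3.96 to 1.86 after 24 h and from 10.1 to 3.17 after 48 h (-1.10 ± 0.31). Another amino acid carrier, SLC43A2, was higher, from 3.01 to 5.78 after 24 h and from 2.54 to 9.94 after 48 h (1.19 ± 0.44). The higher ones also included the vitamin C carrier SLC23A2, from 34.9 to 61.3 after 24 h and from 47.1 to 92.99 after 48 h (0.88 ± 0.09), and the insulin-responsive glucose transporter SLC2A4 (GLUT4), from 5.24 to 10.1 after 24 h and from 3.17 to 5.64 after 48 h (0.75 ± 0.08). A pair of hepatocyte genes outside the marker list, whose median was 0.000974 with 0 of 8 called, were lower at both times, the asialoglycoprotein receptor chain ASGR1, from 113 to 74.7 after 24 h and from 129 to 73.5 after 48 h (-0.70 ± 0.11), and the fatty acid-binding protein FABP1, from 79.4 to 42.9 after 24 h and from 47.6 to 27.1 after 48 h (-0.83 ± 0.04).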
